A study of Mus musculus with 2 samples.

Results

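MHC class I genes were followed across the cells of a mouse tumor: the heavy chains H2-K1 and H2-D1, the light chain B2m, the peptide transporter genes Tap1 and Tap2, tapasin (Tapbp), the immunoproteasome subunits Psmb8, Psmb9 and Psmb10, and the transactivator Nlrc5. These 10 genes were taken by symbol from 31253 listed genes, and all 10 had UMIs (unique molecular identifiers, one per captured transcript) in both libraries. Cd45+ cells had been sorted on day 10 from B16-F10 melanoma, a mouse line injected under the skin of C57BL/6 mice. The mice were Irg1+/+ or Irg1-/-, where Irg1 is the older name of Acod1, the enzyme that makes itaconate in myeloid cells. Tumor pieces of 3 mice were pooled into a single library per genotype. Without replicates nothing could be tested between genotypes, a library difference and a genotype difference cannot be told apart, and the 95% intervals below cover counting error only.

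MHC class I molecules show peptides from inside a cell to CD8+ T cells. Peptides cut by the proteasome are carried into the endoplasmic reticulum by the Tap1 and Tap2 transporter, tapasin helps them onto a heavy chain, and the heavy chain leaves for the surface together with B2m. Interferon exchanges the constitutive catalytic subunits Psmb5, Psmb6 and Psmb7 for Psmb8, Psmb9 and Psmb10, and it also acts on the heavy chain genes, where Nlrc5 is a main transactivator. B16-F10 cells are known for low surface class I until they meet interferon.

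The library labelled Irg1+/+ held 6408 barcodes and 43617546 UMIs, and the library labelled Irg1-/- held 5896 barcodes and 36432067 UMIs. With cells under 10% mitochondrial UMIs, 6284 and 5794 cells were kept, at medians of 4528 and 4594.5 UMIs. In each library, 36 kept cells had a barcode that also occurs in the other library. The targeted gene did not separate the labels. Acod1 stood at 87.8 CPM (UMIs of a gene per 1000000 UMIs of the cells named) over all kept cells labelled Irg1+/+ and at 108 CPM over those labelled Irg1-/-. In the monocyte gate it was 189 and 140 CPM, in the macrophage gate 104 and 137 CPM, and in the neutrophil gate 2581 and 1958 CPM. Which part of the gene the mice lack is not given in the sources used here, so these UMIs cannot check the genotype, and the libraries are named by their labels.

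Cells were gated by scores of marker genes, none of which is a class I member. The gates held 1090 and 1349 monocyte-like cells (Irg1+/+ first, Irg1-/- second, here and below), 1121 and 906 macrophage-like cells, 298 and 168 cDC1-like, 92 and 133 cDC2-like, 402 and 327 mature DC-like, 68 and 68 pDC-like, 1327 and 739 T cell-like, 280 and 511 NK cell-like, 66 and 64 B cell-like, 51 and 158 neutrophil-like and 43 and 89 eosinophil-like cells, and 57 and 8 melanoma cells high in Pmel, a melanosome protein gene. Each of these 12 gates had markers of its own, and none of another lineage, among its 10 leading genes. A gate of mast cells held 3 and 5 cells and was left out, and 22.1% and 21.9% of cells stayed without a gate. Gates are called by their plain names from here on.

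Of the members, 7 lie in or beside the major histocompatibility complex on chromosome 17 (GRCm38): Tapbp at chr17:33915899-33929292, H2-K1 at chr17:33996017-34000347, Psmb9 at chr17:34181987-34187764, Tap1 at chr17:34187553-34197225, Psmb8 at chr17:34197721-34201454, Tap2 at chr17:34203527-34216321 and H2-D1 at chr17:35262730-35267499. B2m lies at chr2:122147686-122153083, Nlrc5 at chr8:94434356-94527272 and Psmb10 at chr8:105935735-105938444. Their promoters are shown as background, and whether they bear on any difference between gates or libraries was not tested. RefSeq (build GRCm38.p6) gives a promoter of 250 bases before to 50 bases after the start site for 8 members, all but Tap2 and Nlrc5. Where a gene had several entries, only the first was read. In the lines below, capitals mark matches on either strand to a kappa B motif of 10 letters (the first capitals of H2-K1 and H2-D1), AANNGAAA (the core that interferon regulatory factors bind), TGACG (the core of cyclic AMP response elements, as found in class I X boxes) and CCAAT (the box of NF-Y). The runs of H2-K1 (chr17:34000327-34000466, minus strand), H2-D1 (chr17:35262915-35263053, plus strand) and B2m (chr2:122147542-122147736, plus strand) reach from the first match to the last with a few bases on each side, and that of Tap1 (chr17:34187306-34187605, plus strand) is the whole window.
H2-K1: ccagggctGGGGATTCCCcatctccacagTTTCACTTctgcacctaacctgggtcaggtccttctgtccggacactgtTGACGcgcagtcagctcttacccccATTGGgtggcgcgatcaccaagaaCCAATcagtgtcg
H2-D1: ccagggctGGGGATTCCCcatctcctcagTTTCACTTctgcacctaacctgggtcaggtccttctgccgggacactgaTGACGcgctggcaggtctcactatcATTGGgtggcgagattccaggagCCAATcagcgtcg
B2m: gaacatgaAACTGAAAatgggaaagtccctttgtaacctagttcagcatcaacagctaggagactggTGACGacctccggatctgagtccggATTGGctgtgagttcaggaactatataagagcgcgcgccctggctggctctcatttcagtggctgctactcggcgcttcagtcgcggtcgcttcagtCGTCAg
Tap1: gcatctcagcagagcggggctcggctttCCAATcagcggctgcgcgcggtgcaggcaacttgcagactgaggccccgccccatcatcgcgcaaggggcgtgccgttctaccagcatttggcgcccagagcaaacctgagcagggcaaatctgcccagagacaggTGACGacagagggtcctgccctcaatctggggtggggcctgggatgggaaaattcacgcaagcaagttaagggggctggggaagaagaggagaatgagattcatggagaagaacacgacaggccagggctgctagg

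H2-K1 and H2-D1, the classical heavy chains of this strain, carry the same matches in the same order, and their windows align over 228 columns of which 90.4% are identical. Of 32851 promoter entries, 0.107% hold the kappa B letters, 23.9% the interferon factor core, 20.8% TGACG and 37.4% CCAAT. All 4 kinds occur together in 4 entries, which are 2 of H2-K1, 1 of H2-D1 and 1 of H2-Q7, a nonclassical heavy chain gene. B2m has the last 3 kinds, as do 1.59% of all entries. Tap1 and Psmb9 lie head to head, and their windows share 275 bases. Their gene models also overlap by 212 bases on opposite strands, and since the counting is not stated to use strand, UMIs from the overlap could fall to either gene. Within the windows read for Psmb8 and Psmb10 none of the 4 kinds was found, and that of Tapbp has 2 matches to CCAAT. The windows of Tapbp (chr17:33919228-33919527), Psmb8 (chr17:34197945-34198244) and H2-D1 (chr17:35262844-35263143) begin inside the gene models given above. Matches at other start sites of these genes could therefore be missed. A match is a run of letters and no measure of binding.

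The heavy chains and the light chain were highest in different cells. H2-K1 was highest in the eosinophil gate, at 7625 and 6294 CPM, followed by NK cells at 4755 and 4656 CPM and mature DCs at 4200 and 4441 CPM. The T cell gate had 3451 and 3366 CPM, macrophages 2506 and 3101 CPM, monocytes 2208 and 2625 CPM, and cDC1s 2235 and 2283 CPM. In the Irg1+/+ library the intervals of mature DCs and pDCs met, as did those of cDC2s, cDC1s and monocytes, whereas the melanoma gate stood apart at the bottom with 1301 CPM (1238 to 1367). H2-D1 was again highest in eosinophils (7678 and 7693 CPM) and lowest in melanoma cells (1426 and 1427 CPM), with NK cells at 4765 and 4921 CPM. The order between these ends was another, since neutrophils were the lowest immune gate for H2-K1 in the Irg1+/+ library (1823 CPM) and level with cDC1s in the Irg1-/- library (2283 CPM) but had 4222 and 4720 CPM of H2-D1, where cDC1s were lowest at 3023 and 3185 CPM. H2-K1 shares 3.10% and H2-D1 5.40% of their 75-base stretches with other transcripts, among them H2-Q7 and H2-T23, so a part of these counts is uncertain. Eosinophils had low medians of 805 and 1040 UMIs per cell, and their H2-K1 levels rest on 290 and 594 UMIs.

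B2m did not follow the heavy chains. It was highest in mature DCs, the migratory and antigen-bearing state of dendritic cells, at 7231 CPM (7125 to 7339) and 7944 CPM (7824 to 8065), with intervals apart from every other gate in both libraries. Monocytes had 5676 and 6372 CPM, macrophages 5528 and 6717 CPM, T cells 4779 and 4744 CPM, and cDC1s 3582 and 3744 CPM. The melanoma gate was again at the bottom, at 2796 and 2975 CPM.

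The transporter genes were high in cDC1s, the dendritic cells that present taken-up antigen on class I. Tap1 was 462 and 509 CPM in cDC1s, 371 and 402 CPM in cDC2s, 361 and 457 CPM in mature DCs, 296 and 388 CPM in monocytes and 198 and 277 CPM in macrophages. Tap2, its partner in the transporter, was 218 and 226 CPM in cDC1s, 163 and 228 CPM in mature DCs and 82.5 and 104 CPM in macrophages. Eosinophils reached 473 CPM of Tap1 (280.5 to 748) in the Irg1+/+ library, an interval that held the cDC1 value. They had the highest Tap2 in both libraries, at 237 CPM (108 to 449) and 265 CPM (171 to 391), on 9 and 25 UMIs. Tapbp, which joins the transporter to the heavy chain, was highest in mature DCs and pDCs, at 834 and 894 CPM and at 760 and 947 CPM, and lowest among immune gates in Irg1+/+ neutrophils, at 365 CPM (258 to 500.4).

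The immunoproteasome subunits were divided between cell types. Psmb8 was 925 and 977 CPM in mature DCs and 881 and 997 CPM in cDC1s, whose intervals met in both libraries, and it was 479 and 560 CPM in monocytes, 407 and 504 CPM in macrophages and 320 and 345 CPM in NK cells. Psmb9 was highest in cDC1s, at 436 CPM (413 to 461) and 448 CPM (416 to 481), apart from mature DCs at 288 and 316 CPM. Against the sum of the other immune gates, Psmb9 in cDC1s was higher by 1.45 and 1.28 on the log2 scale. Psmb10 had another order, with monocytes first at 258 CPM (245 to 272) and 303 CPM (291 to 316) and cDC1s at 175 and 203 CPM. Nlrc5 was 248 and 238 CPM in mature DCs, 170 and 135 CPM in T cells, 157 and 166 CPM in monocytes and 83.0 and 106 CPM in macrophages.

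**Figure D1:**
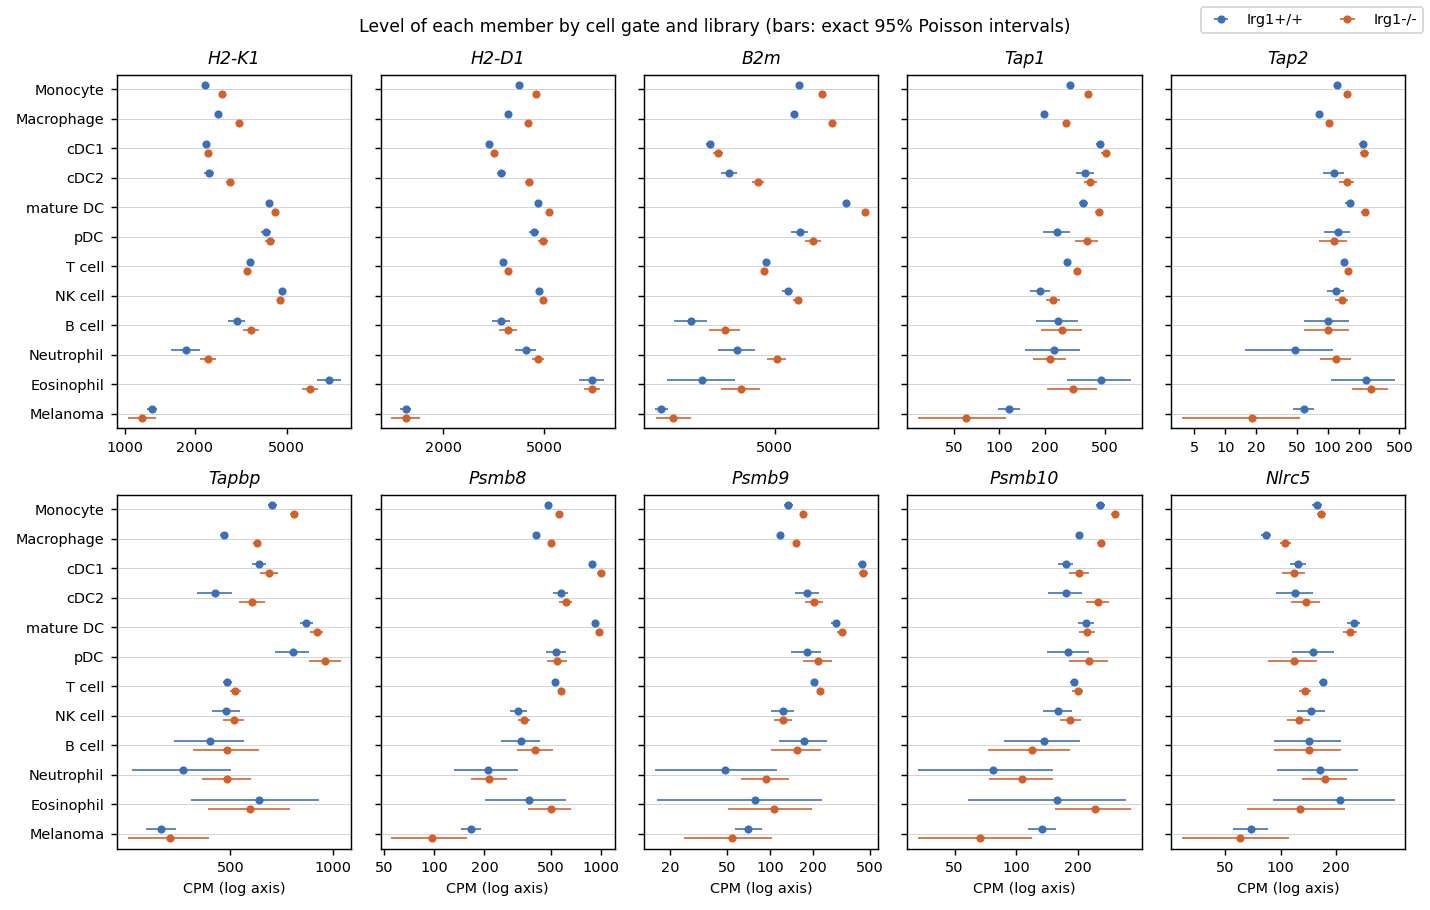
CPM on a log axis of each member in 12 cell gates, with exact 95% Poisson intervals, for the Irg1+/+ library (blue) and the Irg1-/- library (orange). Psmb8 and Psmb9 peak in cDC1s and mature DCs, B2m in mature DCs and the H2-K1 and H2-D1 levels in eosinophils, and the melanoma gate lies at or near the bottom of every panel.

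Log2 CPM profiles of members were compared across the 11 immune gates of each library. Pearson's r was 0.90 and 0.90 for Psmb8 and Psmb9, 0.75 and 0.57 for the transporter partners Tap1 and Tap2, 0.79 and 0.72 for the heavy chains H2-K1 and H2-D1, and -0.46 and -0.52 for H2-D1 and Psmb9. It was 0.08 and 0.16 for H2-K1 and B2m, which pair at the surface, and 0.57 and 0.93 for Tap1 and Psmb8, which act at different steps. These gates share library and free RNA, and r is given as a description. The genes whose log2 CPM over 24 profiles (12 gates in each library) was most like the mean profile of the members were Tagln2 (r = 0.89), an actin-binding protein, Gpr65 (0.89), a proton-sensing receptor, H2-T23 (0.88), the Qa-1 heavy chain, Capzb (0.88), an actin capping subunit, and Tmsb4x (0.86), thymosin beta 4, out of 10086 genes compared. These profiles include the melanoma gate, where every member was at or near the bottom, and this r was not computed without that gate.

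In the macrophage gate all 10 members were higher in the Irg1-/- library, with intervals above 0, and their median log2 ratio of CPM was 0.33 (range 0.27 to 0.49), beside -0.03 over the 9432 genes with at least 100 UMIs. A limit was set at a log2 ratio of 0.3219 in either direction, called the fold limit below. Past it, 6 of 10 members were higher and none lower, where 9.09% of all these genes were higher and 12.5% lower. The count was 3 with thinned cells and without the top 5% of UMIs, and 8 with TMM scaling. Tap1 had the highest ratio, at 198 CPM (190 to 206) and 277 CPM (267 to 289), a log2 ratio of 0.49 (0.41 to 0.57), and it was the only member whose whole interval lay past the limit. Psmb9 went from 117 to 153 CPM (log2 ratio 0.38, 0.27 to 0.49), Psmb10 from 203 to 260 CPM and Nlrc5 from 83.0 to 106 CPM. B2m, at 5528 and 6717 CPM, and H2-D1, at 3597 and 4328 CPM, were higher by 0.28 and 0.27 and stayed under the limit, as did H2-K1 and Psmb8. Nearest to the limit stood Tapbp, past it at 0.33, and H2-K1, short of it at 0.31. Genes outside class I differed in this gate too: Ptprc was 769 and 958 CPM (log2 ratio 0.32), Cd74 5205 and 6750 CPM (0.37) and Lyz2 7874 and 6985 CPM (-0.17). Free RNA also differed, with the melanoma gene Dct at 88.2 and 43.3 CPM and the T cell gene Cd3e at 78.5 and 56.0 CPM in macrophages, and its part in the result was not tested.

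The macrophages were then divided by subset markers, since the mix of subsets differed. Cells highest in class II genes made up 34.3% and 42.5% of the gate, Vegfa high cells 28.0% and 21.2%, Mrc1 high cells 26.6% and 17.5%, and Lyve1 high cells 11.1% and 18.8%. The median log2 ratio of the members was 0.24 in class II high cells (3 of 10 higher past the limit, beside 7.48% of all genes higher and 9.4% lower), 0.13 in Vegfa high cells (0 of 10, 10.3% higher and 10.8% lower), 0.23 in Mrc1 high cells (1 of 10, 11.1% higher and 14.6% lower) and 0.46 in Lyve1 high cells (9 of 10, beside 15% higher and 17.9% lower). In Lyve1 high cells H2-K1 was 2398 CPM (2318 to 2481) and 3400 CPM (3314 to 3488), Tap1 was 188 and 290 CPM, and B2m 5039 and 6761 CPM. In Vegfa high cells the same genes were at 2580 and 2838 CPM, 191 and 209 CPM, and 6204 and 6762 CPM. With the Irg1-/- macrophages weighted to the subset shares of UMIs in the Irg1+/+ library, an alternative added after the data were seen, the median was 0.23 and Tap1 alone, at 0.36, was past the limit. The difference between subsets was not tested.

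**Figure D2:**
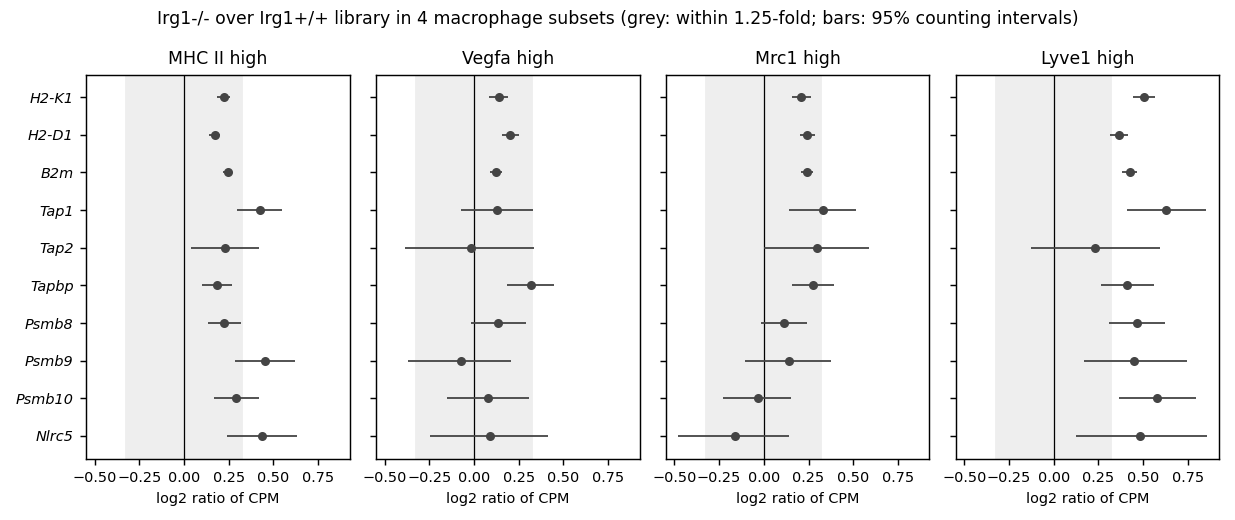
Log2 ratio of CPM, Irg1-/- over Irg1+/+, of the 10 members in 4 macrophage subsets, with 95% counting intervals and a grey band for ratios within the fold limit. In Lyve1 high cells 9 of 10 members lie to the right of the band and in Vegfa high cells none does.

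In monocytes the members had the same sign as in macrophages, and the sizes in these gates were not tested against each other. The mix of cells differed here too: clusters assigned to monocytes held 602 and 582, 186 and 398, and 278 and 246 cells. Its part in the result was not tested. All 10 members were above 0, 9 of them with intervals above 0, at a median log2 ratio of 0.23 beside -0.01 over 8114 genes. Tap1 (296 and 388 CPM, log2 ratio 0.39, 0.30 to 0.48) and Psmb9 (134 and 171 CPM, log2 ratio 0.35, 0.22 to 0.48) were higher past the limit, where 9.6% of all genes were higher and 10.3% lower. Psmb9 was at 0.20 with thinned cells, 0.27 with clusters in place of gates and 0.32 with the stricter gate, each short of the limit, as was Tap1 with the mean of CPM per cell at 0.32. Tap2 missed it narrowly at 0.32, from 123 to 154 CPM. H2-K1 was 2208 and 2625 CPM, H2-D1 3976 and 4625 CPM, and Psmb8 479 and 560 CPM. Nlrc5, at 157 and 166 CPM, had an interval of -0.04 to 0.21 around its ratio of 0.08, so a difference was not detectable at this depth. Outside class I, Cd74 was 4263 and 5516 CPM in monocytes, Ptprc 1801 and 1879 CPM and Lyz2 13099 and 12302 CPM. Free RNA differed as well, with Dct at 69.7 and 16.8 CPM and Cd3e at 64.7 and 46.3 CPM, and its part was not tested.

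Dendritic cells were compared by subset, and the difference between subsets was not tested. In cDC2s all 10 were above 0 at a median of 0.26, and 4 were past the limit (14.5% of all genes higher, 16% lower), namely H2-D1 (3394 and 4348 CPM), Tap2 (115 and 153 CPM, with an interval of -0.01 to 0.85 around its ratio of 0.41), Tapbp (450 and 578 CPM) and Psmb10 (175 and 251 CPM, log2 ratio 0.52, 0.18 to 0.87). With clusters in place of gates none was, at a median of 0.15, and with the mean of CPM per cell 2 were. Genes outside class I differed in cDC2s too, with Ptprc at 1363 and 1659 CPM, Cd74 at 13108 and 15651 CPM and Lyz2 at 1523 and 1882 CPM. Dct was 69.6 and 13.3 CPM there, and the part of free RNA was not tested. In mature DCs only the transporter genes were past the limit, Tap1 at 0.34 and Tap2 at 0.49 (163 and 228 CPM, interval 0.29 to 0.68), where 9.02% of genes were higher and 12.2% lower, and the median of the members was 0.12. With thinned cells Tap1 was short of the limit at 0.19. In cDC1s none was past the limit (10.6% of all genes were higher, 11.5% lower), and the median was 0.07. With clusters in place of gates Psmb10 was, at 0.38, and with the mean of CPM per cell the median was 0.12. In pDCs, with 68 cells in each library, Tap1 was higher by 0.66 (240 and 379 CPM, interval 0.27 to 1.05) and Nlrc5 lower by a ratio with an interval of -0.95 to 0.23. Of the 9 members with enough UMIs there, Psmb10 was the other one higher past the limit, at 0.33 with an interval of -0.14 to 0.81, beside 15.2% of genes higher and 12.1% lower.

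**Figure D3:**
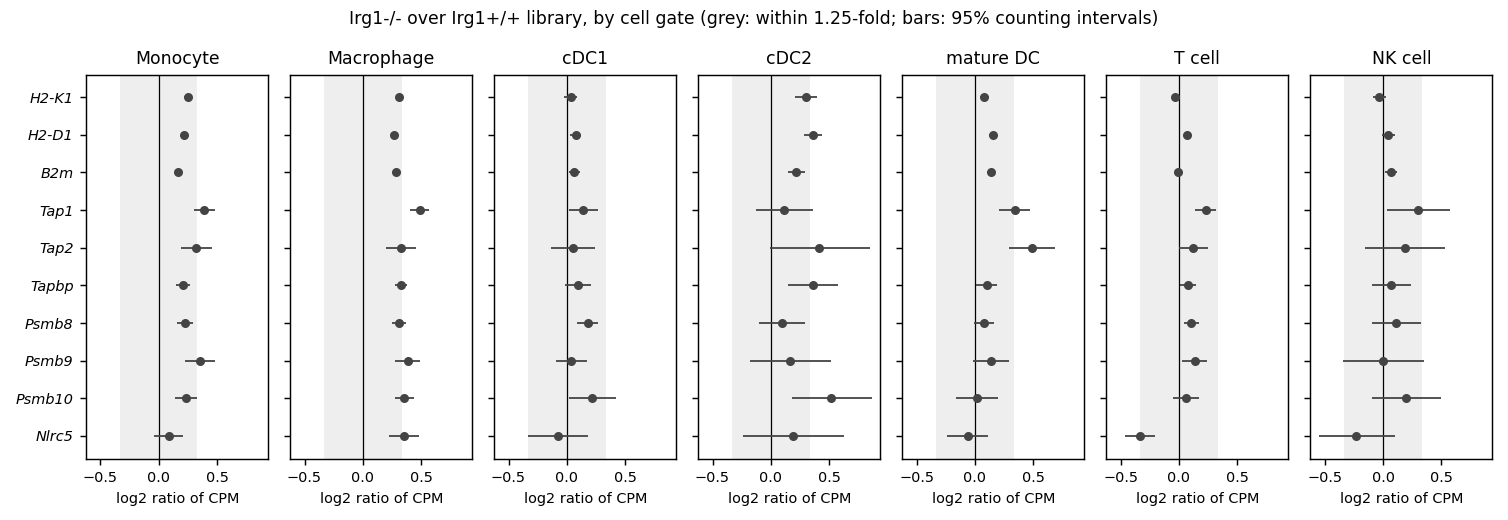
Log2 ratio of CPM, Irg1-/- over Irg1+/+, of the 10 members in 7 gates, with 95% counting intervals and a grey band for ratios within the fold limit. Macrophages have all 10 points near or past the right edge of the band, cDC1s have none past it, and Nlrc5 in T cells lies past the left edge.

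In T cells Nlrc5 had the log2 ratio farthest from 0 among the members, and the class I chains were close to 0. In these cells H2-K1 was 3451 and 3366 CPM, H2-D1 3452 and 3614 CPM and B2m 4779 and 4744 CPM, with log2 ratios of -0.04, 0.07 and -0.01. Nlrc5 was lower in the Irg1-/- library, at 170 CPM (162 to 179) and 135 CPM (125 to 145), a log2 ratio of -0.33 (-0.46 to -0.21). It was the only member past the limit in either direction, where 5.11% of 9014 genes were higher and 10.5% lower. That count, 1 of 10 members, is near the share of genes lower. The ratio of Nlrc5 in T cells was not recomputed under other settings. Nlrc5 was also lower in cells with Cd8a or Cd8b1, at a log2 ratio of -0.47 (-0.65 to -0.29), and in cells with Foxp3, at -0.45 (-0.89 to -0.04). Conventional CD4 cells had -0.11 with an interval of -0.56 to 0.32. In those CD4 cells, 146 and 119 in number, Tap1, Tapbp and Psmb9 were higher past the limit (14.3% of genes higher, 14.8% lower), of which only Tapbp (406 and 562 CPM) had an interval above 0. In the cells with Cd8a or Cd8b1, Tap1 (237 and 296 CPM, 0.32) and Tap2 (123 and 157 CPM, 0.36) were higher past the limit, beside 6.8% of genes higher and 12.1% lower. In NK cells no member was past the limit, with 9.23% of genes higher and 11.8% lower, and Tap1 had 185 and 229 CPM. B cells, neutrophils and eosinophils had 5, 4 and 3 members with at least 100 UMIs, of which only Tapbp in neutrophils (365 and 489 CPM, interval -0.10 to 0.98) was past the limit, where 15.6%, 22.3% and 21.1% of genes were higher.

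For each pair of catalytic subunit genes, the share of the inducible gene in the UMIs of the pair was followed. This is a share of RNA and no measure of the subunits that proteasomes hold. Psmb8 made up 81.5% to 97.1% of its pair in the 11 immune gates of both libraries, lowest in Irg1+/+ neutrophils on 27 UMIs. Psmb9 made up 77.4% (75.3 to 79.4) and 78.3% of its pair in cDC1s, 76.3% and 80.2% in mature DCs, 61.5% and 66.3% in T cells, 57.3% and 64.0% in monocytes, and 37.8% (36.3 to 39.4) and 52.6% (50.6 to 54.6) in macrophages. The macrophage difference of 14.8 percentage points went with both genes of the pair. Psmb9 was higher and Psmb6, its constitutive counterpart, was lower in the Irg1-/- library, at 192 and 138 CPM (log2 ratio -0.48, -0.59 to -0.38). A difference of the same sign was seen within each subset, with Psmb9 shares of 48.0% and 58.9% in class II high, 33.8% and 41.0% in Vegfa high, 33.0% and 43.8% in Mrc1 high and 37.8% and 54.2% in Lyve1 high cells. In Vegfa high cells Psmb9 itself was 105 and 99.9 CPM. Psmb10 made up 81.9% and 87.9% of its pair in macrophages and 87.5% and 90.6% in monocytes, and the macrophage difference changed sign when cells were thinned to 2000 UMIs, at -0.527 percentage points.

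**Figure D4:**
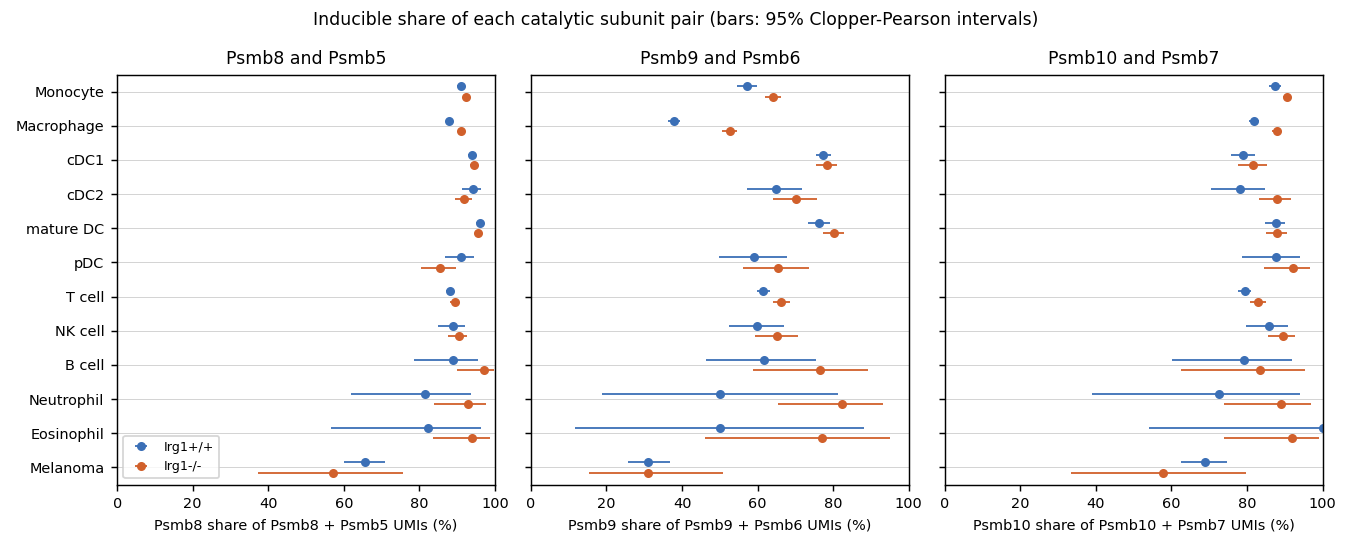
Share of Psmb8, Psmb9 and Psmb10 UMIs in the UMIs of each gene and its constitutive counterpart, in percent, by gate and library (Irg1+/+ blue, Irg1-/- orange), with 95% Clopper-Pearson intervals. Macrophages hold the lowest Psmb9 share among immune gates in the Irg1+/+ library, at 37.8%, and melanoma cells lie lowest for Psmb8.

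On summed UMIs the melanoma cells had less of every member than immune cells. With the mean of CPM per cell this turned for Psmb10 in the Irg1+/+ library (log2 0.020) and for Psmb9 in the Irg1-/- library (1.00, and 0.44 without the top 5% of UMIs). In the Irg1+/+ library the 57 cells had 45.3% of the immune level of H2-K1, 38.6% of H2-D1, 53.1% of B2m, 42.8% of Tap1, 31.5% of Psmb8, 38.6% of Psmb9 and 65.2% of Psmb10. Past 2-fold, 6 of 10 members were lower and none higher, where 19.5% of 10681 genes were lower. The median log2 ratio was -1.12, against 0.14 over all genes. The constitutive subunits were not lower, at 155% for Psmb5, 142% for Psmb7 and 111% for Psmb6 (log2 ratio 0.15, -0.07 to 0.36), and the inducible share was 65.5% (59.9 to 70.8) for Psmb8 and 31.0% (25.6 to 36.9) for Psmb9. In the Irg1-/- library, whose gate held 8 cells, 9 of 10 were lower past 2-fold (21.5% of genes), with Tap1 resting on 10 UMIs and Tap2 on 3. Between libraries, 3 of 7 members with enough UMIs in the melanoma gate were lower past the fold limit in the Irg1-/- library, namely Tap1, Psmb8 and Psmb10, and none was higher, where 24.3% of genes were lower and 20.1% higher. With clusters in place of gates, 69 and 14 cells were taken as melanoma. They had 118 and 113 CPM of Tap1, 170 and 167 CPM of Psmb8 and 139 and 125 CPM of Psmb10. Melanoma cells were the lowest of the 12 gates for 7 members in the Irg1+/+ library, the exceptions being Tap2, Psmb9 and Psmb10, where neutrophils were lower with intervals that met.

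Genes known from immune cells were read in the melanoma gate as a measure of free RNA or mixed cells, although Cd74 can also be induced by interferon in tumor cells, and whether these cells made it was not tested. Ptprc, which encodes Cd45, stood at 14.3% of its immune level, Lyz2 (lysozyme of myeloid cells) at 23.1%, Cd74 (the class II invariant chain) at 24.3% and Cd3e (a T cell receptor subunit) at 28.2% in the Irg1+/+ library. All 10 members were above these values in that library on summed UMIs of the gate. This did not hold under every setting: Tap1 (27.1%) was under Cd3e (40.7%) without the top 5% of UMIs, Tap1 (27.8%) and H2-D1 (40.8%) were under Cd3e (44.1%) with the mean of CPM per cell, and Nlrc5 (24.6%) was under Cd74 (29.3%) with thinned cells. In the Irg1-/- library Tap1 (18.4%), Tap2 (14.4%) and Psmb8 (17.0%) were not above Lyz2 (22.2%), Psmb9 (28.8%) and Psmb10 (28.1%) were not above Cd3e (34.5%, on 10 UMIs), and H2-D1 was at 33.0%, near Cd3e. Irf1, which relays interferon signals, stood at 61.3% in melanoma cells of the Irg1+/+ library and at 29.4%, on 38 UMIs, in those of the Irg1-/- library. A sort on Cd45 is meant to leave out melanoma cells, and how these passed it was not tested. H2-T23, the Qa-1 heavy chain, was at 20.6% in the Irg1+/+ library, within the range of the free RNA genes, and at 5.40% on 2 UMIs in the Irg1-/- library, under each of them. In lymphocytes, which do not make it, Lyz2 was at 1116 CPM in NK cells and 1300 CPM in T cells, beside 13099 CPM in monocytes, so a gate's level of a member may hold UMIs from other cells, whose part in the results was not tested. The melanoma marker Dct differed in that background, at 78.3 and 18.6 CPM in T cells.

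**Figure D5:**
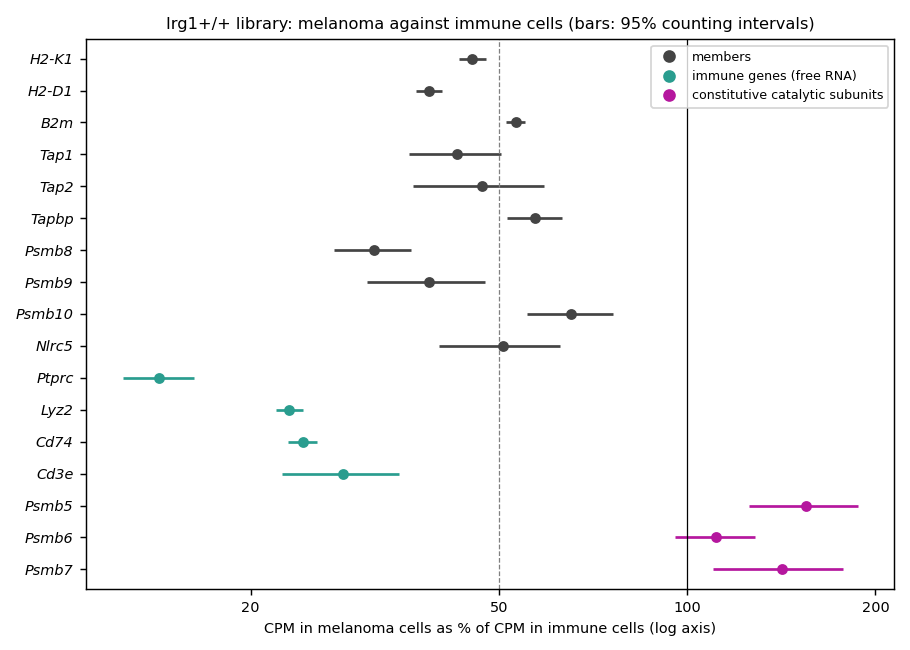
CPM in the 57 melanoma cells as a percentage of CPM in all immune gates of the Irg1+/+ library, on a log axis, with 95% counting intervals. Members (black) lie between 31.5% and 65.2%, immune genes that mark free RNA (green) between 14.3% and 28.2%, and the constitutive subunits (purple) above 100%, where the interval of Psmb6 includes 100%. The gap between members and immune genes closed for Tap1, H2-D1 or Nlrc5 under other settings.

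The value for melanoma cells depended on the deepest cells. Without the cells in the top 5% of UMIs of each library, 34 melanoma cells were left, H2-K1 was at 62.8% and B2m at 63.9% of the immune level, and 2 of 10 members, Tap1 and Psmb8, were lower past 2-fold, with Tap1 at 27.1%. Psmb9 and Tap2 were then at 80.0% and 89.4%, Ptprc at 22.2% and Cd3e at 40.7%. Psmb8 was at 49.8% with the mean of CPM per cell. With each cell thinned to 2000 UMIs, 37 melanoma cells had a median of 4 UMIs of H2-K1 and H2-D1 together (quartiles 3 and 8), beside 12 in monocytes, 12 in macrophages, 15 in T cells and 19 in NK cells of the same library. At this depth the medians were 14 in monocytes and 14 in macrophages of the Irg1-/- library, and 15 in T cells.

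The other genes of the pathway, from lists that hold no member, did not all go with the members. Of 11 other heavy chain genes with enough UMIs in macrophages, 7 were higher in the Irg1-/- library past the fold limit and none lower, with a median of 0.39 beside -0.03 over all genes, of which 9.09% were higher and 12.5% lower. H2-M2, a nonclassical heavy chain, had the highest ratio at 1.37 from 52 and 96 UMIs, H2-T23 went from 174 to 261 CPM, H2-Q7 from 216 to 283 CPM, and Fcgrt, the neonatal Fc receptor, had the lowest at 0.13. In monocytes 6 of 9 were higher past it (9.6% of all genes higher, 10.3% lower) at a median of 0.43, from H2-T24 at 0.14 to Cd1d1, a lipid-presenting molecule, at 0.55. None of 7 loading and folding factors was past the limit in macrophages (9.09% of all genes higher, 12.5% lower) or monocytes (9.6% higher, 10.3% lower). That count is near those shares, and the difference from the heavy chains was not tested. In macrophages their ratios ran from Ganab, a glucosidase, at -0.24 to Tapbpl, a peptide editor, at 0.31, with a median of -0.17 and calreticulin (Calr), a chaperone, at 1744 and 1553 CPM. In monocytes the same genes were lowest and highest, at -0.20 and 0.21, around a median of 0.10.

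Other proteasome genes were counted from lists of core subunits, constitutive catalytic subunits and activators. None of 12 other core subunits and assembly factors was past the limit in macrophages (9.09% of all genes higher, 12.5% lower) or monocytes (9.6% higher, 10.3% lower), with medians of 0.08 and 0.06, and ratios in macrophages from -0.20 for Psma5 to 0.15 for Psmb4. In monocytes they ran from -0.04 for Psmb2 to 0.20 for Psma5. Of the 3 constitutive catalytic genes, Psmb6 and Psmb7 (45.0 and 35.8 CPM) were lower past the limit in macrophages, beside 12.5% of all genes, and none in monocytes, beside 10.3%, where Psmb7 was the lowest at -0.24 with an interval of -0.51 to 0.03. The activators Psme1 and Psme2, which open the core and are also inducible by interferon, had ratios of 0.27 and 0.23 in macrophages, under the limit, and Psme3 had -0.18. In Lyve1 high macrophages Psma6, Psma7 and Psme2 were higher past the limit, from lists of 12 core and assembly genes and 4 activators. There 15% of all genes were higher and 17.9% lower. Among trimming enzymes, Thop1, a cytosolic peptidase, was lower past the limit in macrophages at -0.86 from 95 and 37 UMIs, and Npepps, an aminopeptidase, in monocytes at -0.37, with the same shares of all genes lower, while Lnpep had 0.26 in macrophages and Blmh 0.18 in monocytes.

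Among 14 regulators with enough UMIs in macrophages, 6 were higher past the limit and Rfxap, a subunit of the RFX factor, was lower at -0.33, where 9.09% of all genes were higher and 12.5% lower. Ciita, the class II transactivator, had the highest ratio at 0.93 (48.5 and 92.3 CPM), and among the others Stat2 and Irf1, which carry interferon signals to promoters, had 0.72 and 0.57. Irf8, a myeloid factor, had 0.41, and Rfxank had 0.37 with an interval of -0.18 to 0.91. In monocytes 3 of 13 were higher past the limit (9.6% of all genes higher, 10.3% lower), with Ciita at 0.63, Stat2 at 0.62 and Irf1 at 0.39, and Rfxap had the lowest ratio at -0.29. The receptor chain Ifngr1 and the kinase Jak1 were at 0.10 and -0.02 in macrophages.

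Finally, cells were split by a UMI of Cxcl9 or Cxcl10, chemokine genes that respond to interferon. Such a UMI may also come from free RNA. Monocytes with such a UMI made up 69.2% and 76.5% of the gate. They had more of all 10 members than those without, at a median log2 ratio of 0.31 in the Irg1+/+ library and 0.26 in the Irg1-/- library. Tap2 had the highest of these ratios in the Irg1+/+ library at 0.77, with 4 members higher past the limit (9.98% of all genes higher, 10.8% lower), and 2 were in the Irg1-/- library (10.5% higher, 12.4% lower). Between libraries the median was 0.22 in monocytes with such a UMI (1 of 10 higher past the limit, 9.86% of genes higher and 10.3% lower) and 0.24 in those without (2 of 10, 13.3% higher and 12.8% lower), and 0.23 and 0.22 with each cell thinned to 2000 UMIs. Tap1 had a ratio of 0.31 with and 0.58 without such a UMI, and this difference was not tested. As a background, Cxcl9 stood at 175 and 218 CPM in T cells, beside 1069 and 1497 CPM in monocytes. Cxcl10 stood at 102 and 101 CPM in T cells, beside 699 and 744 CPM in monocytes. The share of cells given a UMI by this background alone was not measured, so the split does not separate expressing from other cells. Cells without a UMI can still express either gene. Macrophages with such a UMI were far deeper than those without, at medians of 10875 and 1907.5 UMIs in the Irg1+/+ library. With all UMIs their members differed from those of cells without at medians of 0.16 (1 of 10 higher past the limit, 19.6% of genes higher and 16.2% lower) and 0.38 (6 of 10, 20.2% higher and 18.8% lower), and at 2000 UMIs per cell at medians of 0.25 and 0.34. Between libraries the median was 0.33 with (5 of 10 higher, 9.51% of genes higher and 12.8% lower) and 0.17 without (1 of 10, 13.9% higher and 13.4% lower) on all UMIs, and 0.26 and 0.30 when thinned, so that which side was larger depended on the depth.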

How the data were processed

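The authors deposited raw UMI counts per gene and cell, with no normalization, for 1 BD Rhapsody library per genotype. They trimmed reads with fastp, listed barcodes with UMI-tools and aligned with STAR to the Ensembl mouse genome (GRCm38). Cells at or over 10% mitochondrial UMIs were dropped, and mitochondrial genes left the tables. A gate score is the mean over markers of log2(1 + counts per 10000), each marker divided by its 99th percentile. A cell joined the gate of its highest score if that was at least 0.25 and led other lineages by 0.1. Both limits were set after marker scores, not class I values, were seen. No doublet caller was run. The lead leaves ungated the cells with near-equal scores of different lineages, and whether mixed cells remained in the gates was not tested. UMIs were summed per gate in each library, and CPM carry exact 95% Poisson intervals. Log2 ratios used a pseudocount of 0.5 UMIs and exact conditional binomial intervals, and a gene needed 100 UMIs over both libraries. Nothing was tested, since cells are not replicates. The authors tested between cells, which was not followed.

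All members are named in the text. Of the other lists, the genes with the highest and lowest ratio in macrophages and monocytes are named, and others were chosen after their values were seen. The members and lists were chosen with earlier results of these data known. Positions of genes come from GENCODE release M21 and promoters from RefSeq, both GRCm38. Python 3.11.15, numpy 2.4.6, scipy 1.17.1, scikit-learn 1.9.0, leidenalg 0.10.2, and edgeR 4.0.16 in R 4.3.3 for TMM factors were used. Only the ratio and share steps were run on simulated counts, drawn from the distributions that their intervals assume. Alternatives were TMM scaling, a stricter gate (0.35 and 0.2), thinning to 2000 UMIs, the mean of CPM over cells, a 5% mitochondrial limit, leaving out the top 5% of UMIs, clusters in place of gates, a fold of 1.5 and a minimum of 20 UMIs.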

Additional observations from a re-analysis of the deposited data

Results flagged for a closer look

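Some members differed between libraries in opposite directions in different gates, with counting intervals apart from 0 on both sides. The difference between gates was not tested, as there is 1 library per genotype. Tap1 had log2 ratios (Irg1-/- over Irg1+/+) of 0.39 in monocytes, 0.49 in macrophages, 0.34 in mature DCs and 0.66 in pDCs, against -0.88 in melanoma cells, where the Irg1-/- value rests on 10 UMIs of 8 cells. Psmb10 had 0.35 in macrophages and 0.52 in cDC2s against -0.95 in melanoma cells, on 11 UMIs of the same 8 cells. In the melanoma gate 24.3% of all genes were lower past the fold limit. With clusters in place of gates, 69 and 14 cells were taken as melanoma. They had 118 and 113 CPM of Tap1 and 139 and 125 CPM of Psmb10, so the opposite direction in melanoma cells depended on the gate. Nlrc5 had 0.35 in macrophages and -0.33 in T cells, with at least 719 UMIs in each library. In T cells 10.5% of all genes were lower past the fold limit, and the Nlrc5 ratio there was not recomputed under other settings.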

How the results depend on the processing

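No paired analysis was possible because each genotype has 1 library. Leaving out a replicate was not possible for the same reason. In melanoma cells of the Irg1+/+ library the median log2 over immune cells (main value -1.12) was -1.22 with TMM scaling, -0.91 with thinned cells, -0.81 with the mean of CPM per cell and -0.66 without the top 5% of UMIs, where 2 members in place of 6 were lower past 2-fold. In the Irg1-/- library it was -1.16 with the mean of CPM, -1.14 without the top 5% and -0.99 with clusters, where 5 in place of 9 were lower. Single values in melanoma cells changed sign. Psmb10 in the Irg1+/+ library was at 0.020 with the mean of CPM, and Psmb9 in the Irg1-/- library was at 1.00 with the mean of CPM and 0.44 without the top 5%. The cause was not tested. The Psmb8 share of its pair was 72.9% with the mean of CPM, the Psmb9 share 41.7% without the top 5%, and the Psmb10 share 79.7% and 76% under these settings in turn.

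In macrophages the median was 0.26 thinned, 0.25 with the mean of CPM, 0.27 without the top 5% and 0.23 with weighted subsets, the last chosen after the data were seen, as were the shares below. The count past the fold limit was 3, 3 and 1 for thinned cells, without the top 5% and with weighted subsets, and 8 with TMM scaling. At 1.5-fold it was 0, where 2.61% of all genes were higher. The Psmb8 share differed by 4.38 points thinned, and the Psmb10 share by -0.527 points thinned in place of 5.99, so that its direction did not hold. The Psmb9 share differed by 14.1 to 15.1 points under every setting run. In monocytes the count past the fold limit was 1 with the stricter gate, the mean of CPM and clusters. It was 3 with TMM scaling, under 5% mitochondrial UMIs, without the top 5% and without shared barcodes. At 1.5-fold it was 0, where 2.48% of all genes were higher. The T cell median was 0.10 with the stricter gate, 0.042 thinned, 0.035 under 5% mitochondrial UMIs and 0.11 with clusters. Of 426 values of single genes or smaller gates under these settings, 334 were taken as unchanged. For ratios this meant a move within counting error, and for counts of members a count that was equal or within 1.5-fold.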
